A study of Saccharomyces cerevisiae with 6 samples.

Results

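The ribosome assembly factors of the yeast nucleolus were examined as 56 protein-coding genes, listed by systematic name, of the 6572 features counted in S. cerevisiae BY4741. They were chosen by function and not by a measured value, though with earlier results of these data known. The list holds the core proteins of box C/D and H/ACA ribonucleoproteins, the small subunit processome, and factors that build the 60S subunit. All 56 were found in the count tables, and each had reads in every library. The series holds 3 libraries of BY4741 and 3 of S. boulardii Biocodex, a probiotic yeast. Both strains were grown for 6 h in a medium labelled ILM, up to mid-exponential phase, and RNA was taken from cell pellets. BY4741 is a haploid strain derived from S288C and widely used in the laboratory. It lacks LEU2, URA3 and MET17 and carries a partial deletion of HIS3. The Biocodex tables name their features differently, with 0 identifiers in common, so the factors were described in BY4741 alone and no strain comparison of them was made.

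The nucleolus is where RNA polymerase I transcribes ribosomal DNA and where most of the ribosome is put together. Small nucleolar RNAs, held in box C/D or H/ACA ribonucleoproteins, guide methylation and pseudouridylation of the ribosomal RNA. The small subunit processome, which contains the U3 box C/D particle, folds and cuts the precursor of the small subunit, while another set of helicases, GTPases and scaffold proteins matures the large subunit. In budding yeast the genes of these factors are known as the ribosome biogenesis regulon. They are known to be repressed together under stress and starvation and induced together on rich medium. Their promoters are known for a pair of short elements, PAC, bound by the repressors Dot6 and Tod6, and RRPE, bound by Stb3.

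BY4741 replicates 1, 2 and 3 held 18707708, 5181546 and 4581414 counted reads. LEU2, URA3 and MET17 had 0 reads in each BY4741 library, as the genotype has it, which allows up to 0.160, 0.579 and 0.655 CPM (reads per 1000000 counted) in replicates 1, 2 and 3. HIS3 had 925, 196 and 285 reads. Nothing in the labels ties the 3 libraries to separate cultures, so their spread may be technical. With 1 group of 3 libraries, no test between groups was possible, and values are given as means with SD.

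The promoters of the factors carried the PAC core far more often than promoters at large. The letters GATGAG, on either strand, stood in the window from 250 bases before to 50 bases after the coding start in 53 of 56 factors, or 94.6%, against 1173 of 5897 promoters of all genes, or 19.9%. In UTP4 the only PAC match lay inside the coding sequence, at position 6. With only the bases before the start searched, PAC stood in 52 of 56 factors, or 92.9%, against 16.5% of all promoters. The RRPE core AAAAATTTT stood in 39 of 56, or 69.6%, against 7.09% of all promoters. Both were present in 38 factors, or 67.9%, against 3.65% of all promoters. UTP22 and EMG1 had neither, and UTP15 had RRPE alone. Windows of 8 factors are shown because they span the range of levels described further on, from NOP10 and GAR1, the highest, to UTP9 and UTP18, the lowest. CBF5 has the highest CPM of the 56, NOP7 and MPP10 the highest level per kb of their complexes, and UTP22 shows a window without either core. Each is the 250 bases before the coding start, read 5′ to 3′ on the gene's strand from RefSeq R64. Capitals mark matches to either core, and overlapping matches run together. The authors' build is not given in the sources used here, so the positions are those of R64 only.
NOP10 (YHR072W-A), chrVIII:241414-241663, + strand: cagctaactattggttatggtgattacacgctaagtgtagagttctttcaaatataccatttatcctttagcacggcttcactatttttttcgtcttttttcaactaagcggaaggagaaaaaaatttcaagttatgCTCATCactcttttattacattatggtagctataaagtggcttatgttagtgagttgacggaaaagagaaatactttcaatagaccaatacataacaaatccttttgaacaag
GAR1 (YHR089C), chrVIII:283299-283548, - strand: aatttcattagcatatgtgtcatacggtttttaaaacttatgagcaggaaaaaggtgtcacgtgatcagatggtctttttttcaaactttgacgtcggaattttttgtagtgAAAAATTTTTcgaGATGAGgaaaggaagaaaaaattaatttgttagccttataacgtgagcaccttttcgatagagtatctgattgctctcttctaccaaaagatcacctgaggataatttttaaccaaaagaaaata
CBF5 (YLR175W), chrXII:505884-506133, + strand: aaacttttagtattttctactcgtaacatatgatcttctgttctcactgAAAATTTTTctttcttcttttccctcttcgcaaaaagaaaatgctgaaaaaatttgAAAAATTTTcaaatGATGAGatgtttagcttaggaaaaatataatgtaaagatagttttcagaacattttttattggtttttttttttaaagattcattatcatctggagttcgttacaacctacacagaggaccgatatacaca
NOP7 (YGR103W), chrVII:695167-695416, + strand: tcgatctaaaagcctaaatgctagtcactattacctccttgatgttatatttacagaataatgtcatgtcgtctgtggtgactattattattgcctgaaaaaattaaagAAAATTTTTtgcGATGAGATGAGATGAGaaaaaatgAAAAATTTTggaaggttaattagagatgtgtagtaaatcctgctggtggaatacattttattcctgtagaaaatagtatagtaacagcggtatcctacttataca
MPP10 (YJR002W), chrX:438615-438864, + strand: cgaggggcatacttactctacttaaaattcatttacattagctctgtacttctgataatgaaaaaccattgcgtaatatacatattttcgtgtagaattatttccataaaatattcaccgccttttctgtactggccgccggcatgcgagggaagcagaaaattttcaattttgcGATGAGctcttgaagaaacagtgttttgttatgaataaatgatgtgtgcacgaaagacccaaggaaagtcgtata
UTP9 (YHR196W), chrVIII:491681-491930, + strand: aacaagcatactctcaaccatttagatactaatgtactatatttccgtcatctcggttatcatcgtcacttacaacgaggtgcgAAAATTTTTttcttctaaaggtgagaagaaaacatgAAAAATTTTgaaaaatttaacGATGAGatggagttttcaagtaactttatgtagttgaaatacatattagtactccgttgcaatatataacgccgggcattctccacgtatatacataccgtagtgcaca
UTP18 (YJL069C), chrX:312707-312956, - strand: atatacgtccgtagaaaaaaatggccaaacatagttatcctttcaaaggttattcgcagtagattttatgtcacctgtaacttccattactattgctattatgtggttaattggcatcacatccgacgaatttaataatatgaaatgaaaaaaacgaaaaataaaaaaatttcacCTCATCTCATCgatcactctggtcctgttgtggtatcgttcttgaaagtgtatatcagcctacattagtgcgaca
UTP22 (YGR090W), chrVII:662108-662357, + strand: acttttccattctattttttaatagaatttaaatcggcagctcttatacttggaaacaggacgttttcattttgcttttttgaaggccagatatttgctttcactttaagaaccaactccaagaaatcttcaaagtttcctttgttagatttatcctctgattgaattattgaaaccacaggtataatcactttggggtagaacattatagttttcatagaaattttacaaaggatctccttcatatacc

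The GAR1, CBF5 and UTP9 windows show the arrangement seen in most factors with both cores, an RRPE core just upstream of a PAC core. In 31 of the 38 factors with both, the RRPE core of the closest pair lay farther from the coding start than the PAC core (81.6%, against 66.5% of all 215 promoters with both). The centres of that pair were a median of 17 bases apart, against 21.5 in all such promoters, and within 50 bases of each other in 37 of 38. Of the 215, which include these 38, 178 had them within 50 bases. The PAC core was repeated in 20 of 56 factors, or 35.7%, against 3.04% of all promoters. NOP7, a scaffold protein of early 60S particles, holds 3 overlapping copies, and UTP18 a pair of overlapping copies on the other strand. NOP10 and MPP10 have a PAC core and no RRPE core. A match to these letters is a description of the window and does not show that a factor binds there.

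The PAC core kept to a narrower stretch in the factors than in promoters at large. The 77 PAC matches of the factors had a median position of -119 relative to the coding start, and 93.5% of them lay between -200 and -51. Among the 1392 matches in all promoters that share was 62.2%, and the median position was -109.5. The PAC quartiles were -131 and -101 in the factors, against -171 and -59 in all promoters. The 25-base bin that opens at -125 held a PAC core in 25 of 56 factors, or 44.6%. The 56 RRPE matches had a median position of -142, with the fullest bin, which opens at -150, holding one in 18 of 56 factors, or 32.1%. In all promoters the RRPE matches had a median position of -145, and 79.4% lay between -200 and -51, against 89.3% in the factors. The RRPE quartiles were -169 and -130 in the factors, against -182 and -115 in all promoters. For both cores the medians were thus close to those of promoters at large, and the quartiles lay nearer each other in the factors.

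**Figure D1:**
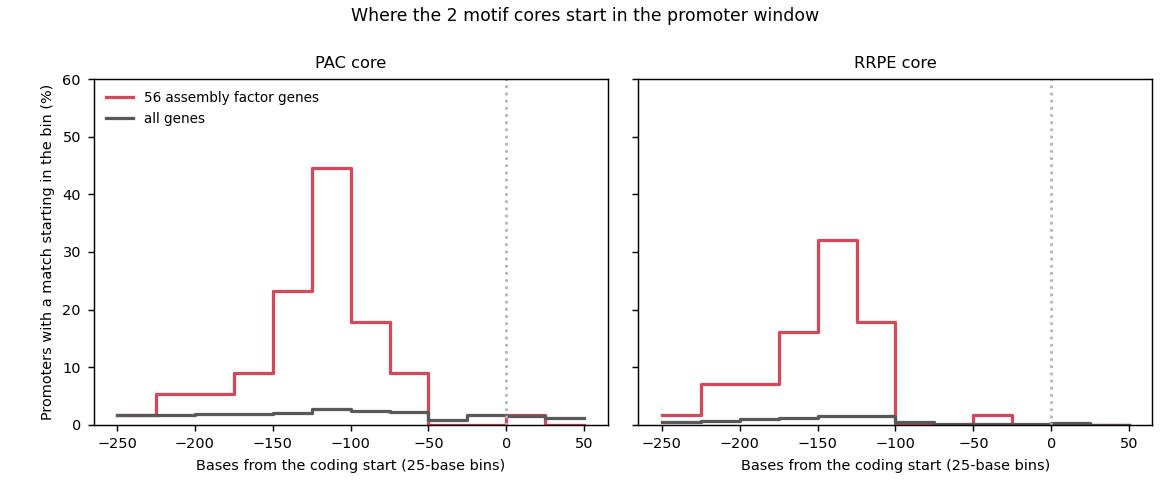
Share of promoters (vertical axis, %) in which a match to the PAC core (left) or the RRPE core (right) begins in each 25-base bin of the window (horizontal axis, bases from the coding start), for the 56 assembly factor genes and for all genes. The PAC curve of the factors peaks at 44.6% and the RRPE curve at 32.1%, both upstream of the coding start.

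The same cores marked the genes that work beside these factors, and not the ribosomal proteins themselves. PAC was present in 65 of 73 other nucleolar assembly factors (89.0%), in 20 of 23 late and cytoplasmic assembly factors (87.0%), in 8 of 9 genes of RNA polymerase I (88.9%) and in 8 of 10 of RNA polymerase III. Among the 138 genes of cytosolic ribosomal proteins it was present in 15, or 10.9%, and RRPE in 6, or 4.35%. Genes of the exosome and the TRAMP complex, which trim and degrade nuclear RNA, had PAC in 10 of 17 and RRPE in 3 of 17. Cofactors that assemble snoRNA particles had PAC in 4 of 9, and general stress genes in 2 of 24.

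**Figure D2:**
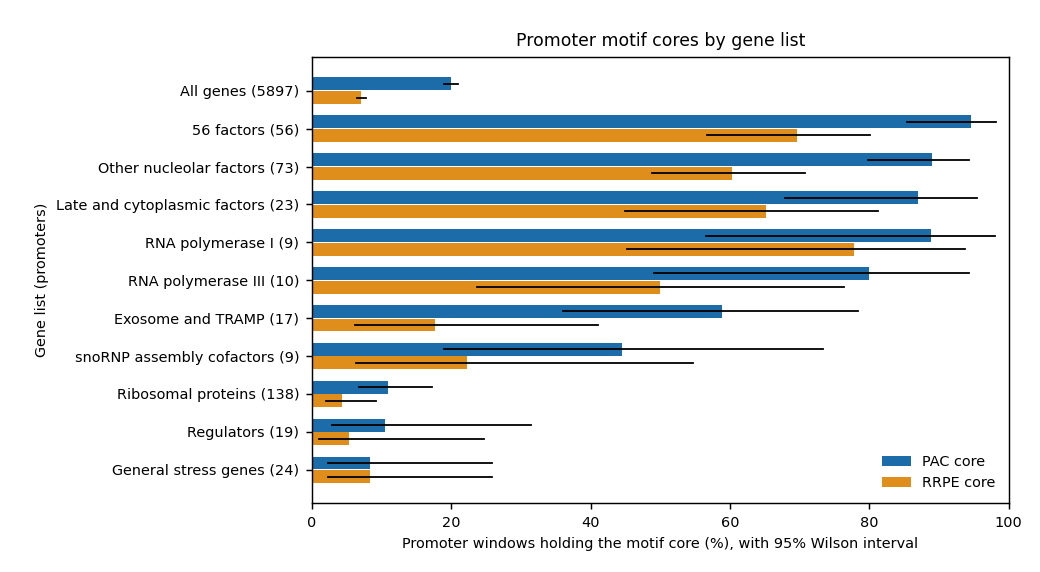
Share of promoter windows that hold the PAC core or the RRPE core (horizontal axis, %), by gene list (vertical axis, number of promoters in parentheses). Bars are shares and lines 95% Wilson intervals. The 56 factors stand at 94.6% and 69.6%, and the ribosomal proteins at 10.9% and 4.35%.

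Despite these shared elements, the factors differed widely in level. Levels between genes were compared as CPM per kb of coding length. The highest, NOP10, exceeded the lowest, UTP18, by 192-fold in the mean, and by 175, 132 and 406-fold in replicates 1, 2 and 3. Without length, their mean levels were 162 and 8.54 CPM. NOP10 has the shortest coding length, 177 bases, and UTP18 rested on 18 reads in replicate 3. Over gene means, the median of the factors was 47.6 CPM per kb. The median was 45.9 for the 5898 features matched to R64 coding genes, so the median factor lay close to the median gene. Within replicates 1, 2 and 3 the median of the factors was 40.8, 38.8 and 44.2 CPM per kb. That lay below the median of all matched genes each time, at 44.1, 44.6 and 46.9. Of the 56, 29 lay above the median of all genes, 7 in the highest 25% and 8 in the lowest 25%. By contrast, 136 of the 138 ribosomal protein genes lay in the highest 25%, with a median of 913 CPM per kb. The contrast was smaller without length, with medians of 420 CPM for the ribosomal protein genes and 83.2 CPM for the factors. The factors took 0.520% of the reads in replicate 1 (95% Wilson interval 0.517 to 0.524%), 0.471% in replicate 2 (0.466 to 0.477%) and 0.623% in replicate 3 (0.616 to 0.631%), intervals that cover counting error only.

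**Figure D3:**
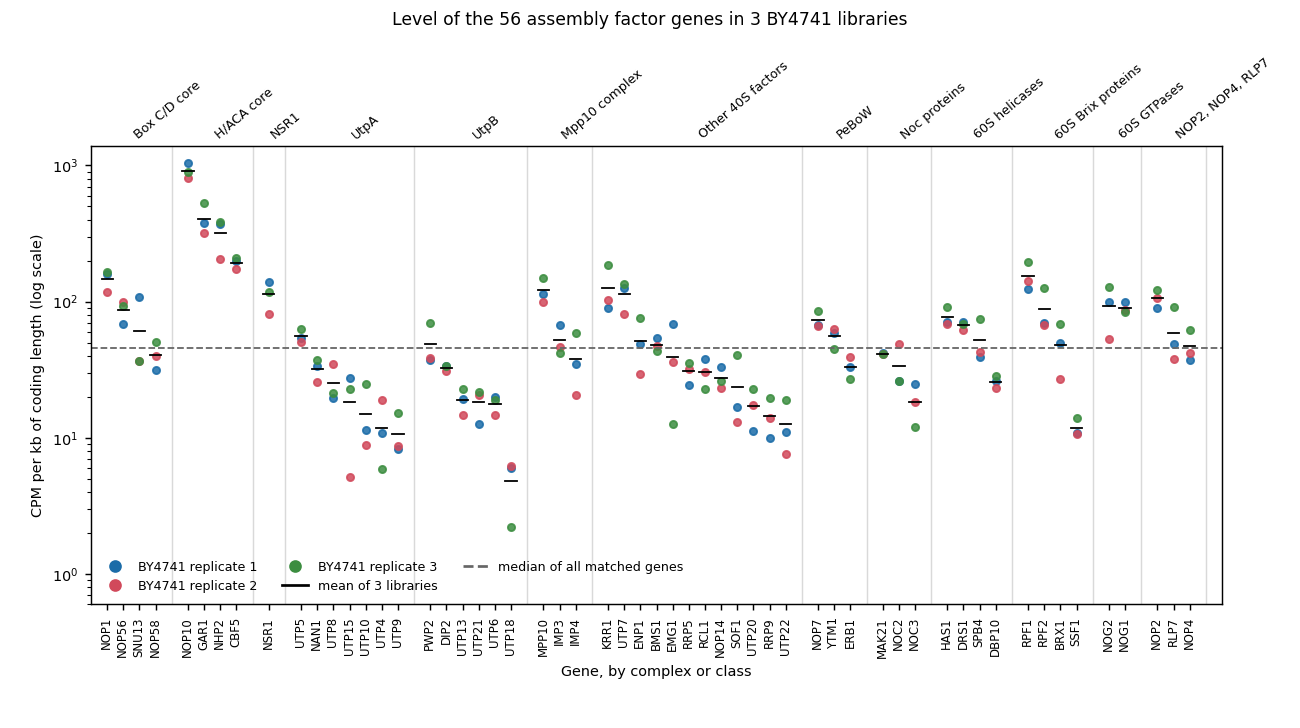
Level of each of the 56 genes (vertical axis, CPM per kb of coding length, log scale), grouped by complex or class, in the 3 BY4741 libraries (points) with their mean (bar). The dashed line is the median of all matched genes, 45.9 CPM per kb. The 4 H/ACA genes lie above it in every library, and all UtpA genes other than UTP5 lie below it.

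The levels differed between the main groups of factors. The 9 genes of the snoRNA particle cores and NSR1 had a median of 148 CPM per kb, the 19 factors of the 60S subunit 55.6, and the 28 factors of the small subunit processome 29.0. Of these groups, 8 of 9, 13 of 19 and 8 of 28 genes lay above the median of all genes. The order was the same in CPM without length, with medians of 145, 95.2 and 52.9. Length moved with it in part: the median coding length was 984 bases in the first group, 1821 in the 60S group and 1858.5 in the 40S group. Across the 56 factors, which are not independent replicates, Spearman's rho between coding length and CPM per kb was -0.51, and between coding length and CPM it was 0.09. Over the 5711 matched genes with reads, rho between length and CPM per kb was -0.32. The part of length in the order of the groups was not tested.

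Genes of the H/ACA core proteins had the highest median CPM per kb of the sets. These particles convert uridines of the ribosomal RNA to pseudouridine. NOP10 (YHR072W-A), a small protein of the particle, stood at 1045, 813 and 894 CPM per kb in replicates 1, 2 and 3, and GAR1 (YHR089C), which helps the RNA substrate load and leave, at 378, 317 and 529. NHP2 (YDL208W), an RNA-binding protein of the core, stood at 370, 204 and 383 CPM per kb. CBF5 (YLR175W), the pseudouridine synthase itself, stood at 198, 173 and 211 CPM per kb. All 4 were lowest in replicate 2, and NOP10 did not overlap with GAR1 in any pair of libraries. NOP10 exceeded CBF5 by 4.74-fold ± 0.514 (SD, n = 3). In reads without length, CBF5 led the 56 factors at 281 ± 28.2 CPM (SD, n = 3). The shortest coding length among the factors, 177 bases, belongs to NOP10.

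The box C/D core proteins had a lower median, 73.6 CPM per kb against 364 for the H/ACA set. NOP1 (YDL014W), the methyltransferase known as fibrillarin in animals, stood at 161, 117 and 165 CPM per kb. NOP56 (YLR197W) and NOP58 (YOR310C), the paired scaffold proteins of the particle, stood at 68.1, 98.9 and 93.4 and at 31.3, 40.2 and 50.6 CPM per kb. NOP56 exceeded NOP58 in each library. SNU13 (YEL026W), which binds the kink-turn of the RNA and is also part of the spliceosome, had 769, 73 and 64 reads, or 108, 37.0 and 36.7 CPM per kb. Its value in replicate 1 stood far above the other libraries, with a CV of 67.8% in CPM, the highest of the 8 core genes, where counting error alone gives 7.07%. NSR1 (YGR159C), a nucleolin-like RNA-binding protein, stood at 139, 81.8 and 119 CPM per kb, below NOP1 in each library.

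Within the processome, subunits of the same complex were measured at unequal levels. UtpA is the subcomplex that binds the start of the ribosomal RNA precursor. Its 7 genes had a median of 18.4 CPM per kb. UTP5 (YDR398W) was the highest at 53.7, 50.7 and 63.0 CPM per kb, and UTP9 (YHR196W) the lowest at 8.26, 8.71 and 15.2. UTP5 exceeded UTP9 by 5.49-fold ± 1.20 (SD, n = 3), and their libraries did not overlap. Of the others, NAN1 followed UTP5 at 32.1 ± 5.96 CPM per kb (SD, n = 3) and UTP8 came next at 19.5, 34.8 and 21.5, highest in replicate 2. UTP15 (YMR093W) had 788, 41 and 161 reads, or 42.1, 7.91 and 35.1 CPM, with replicate 2 far below the others. UTP4 (YDR324C), the homolog of human cirhin, went the other way at 25.2, 44.2 and 13.8 CPM, highest in replicate 2. UTP10, a long HEAT-repeat protein, was highest in replicate 3, at 60.7, 47.3 and 132 CPM.

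UtpB, a complex that joins after UtpA, had a similar median of 18.6 CPM per kb over 6 genes. PWP2 (YCR057C), one of its WD-repeat proteins, was the highest at 37.1, 38.6 and 69.9 CPM per kb. UTP18 (YJL069C), which recruits the exosome helicase Mtr4, was the lowest of all 56 factors at 5.99, 6.16 and 2.20 CPM per kb. It rested on 200, 57 and 18 reads, and it alone fell under a mean of 10 CPM. PWP2 exceeded UTP18 by 6.20, 6.27 and 31.8-fold in replicates 1, 2 and 3, and the last of these rests on the 18 reads. DIP2 was the second highest and among the steadiest factors, at 94.7, 88.4 and 95.6 CPM, with a CV of 4.23% against 4.07% from counting error. UTP6, UTP13 and UTP21 lay close together, between 17.9 and 18.9 CPM per kb, and their libraries overlapped. UTP21 was lowest in replicate 1, at 12.6, 20.7 and 21.7 CPM per kb.

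MPP10 stood out from the partners that bind it directly. MPP10 (YJR002W), the scaffold of the Mpp10 complex, stood at 114, 99.6 and 150 CPM per kb. IMP3 (YHR148W) and IMP4 (YNL075W), which help the U3 RNA pair with the precursor, stood at 66.9, 46.8 and 42.3 and at 34.8, 20.6 and 59.0 CPM per kb. Each MPP10 library lay above each library of its partners, and MPP10 exceeded IMP4 by 3.56-fold ± 1.17 (SD, n = 3). The libraries of IMP3 and IMP4 overlapped.

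The remaining 12 factors of the small subunit had a median of 30.6 CPM per kb. KRR1 (YCL059C), a KH-domain protein that stays with the pre-40S particle for part of its path, led at 90.4, 103 and 187 CPM per kb, followed by UTP7, a WD-repeat protein, at 125, 80.8 and 135. UTP22 (YGR090W), the lowest of these, stood at 11.1, 7.59 and 19.0 CPM per kb. UTP22 is known to take part in the CURI complex, which links assembly to the transcription of ribosomal protein genes through Ifh1. EMG1 (YLR186W), a methyltransferase of the 18S RNA, had 980, 141 and 44 reads, or 52.4, 27.2 and 9.60 CPM. Its CV of 72.3% was the highest of the 56. UTP22 and EMG1 are the factors in whose windows neither promoter core was found. The GTPase BMS1 stood at 48.2 ± 5.53 CPM per kb and RCL1, known to bind it, at 30.4 ± 7.73 (SD, n = 3 each), with BMS1 above RCL1 in each library. ENP1 stood at 49.1, 29.4 and 76.5 CPM per kb, lowest in replicate 2. UTP20 stood at 11.2, 17.3 and 22.8 CPM per kb, lowest in replicate 1. RRP5 stood at 30.8 ± 5.62, NOP14 at 27.5 ± 5.26, SOF1 at 23.4 ± 14.9 and the U3-specific protein RRP9 at 14.5 ± 4.77 CPM per kb (SD, n = 3 each).

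Factors of the 60S subunit had a higher median than those of the 40S subunit, but SSF1, NOC3 and DBP10 lay below the 40S median of 29.0 CPM per kb. In the PeBoW complex, which acts in processing of the large subunit RNA, NOP7 (YGR103W) stood at 67.5, 65.8 and 86.0 CPM per kb, YTM1 (YOR272W) at 58.8, 62.8 and 45.3 and ERB1 (YMR049C) at 33.0, 38.9 and 27.2. The order of these 3 was the same in each library. NOP7 exceeded ERB1 by 2.30-fold ± 0.767 (SD, n = 3). Among the Noc proteins, MAK21 (YDR060W), also called Noc1, was the steadiest factor of all, at 130, 127 and 126 CPM. Its CV of 1.53% lay under the 3.47% that counting error alone gives. NOC2, which pairs with either of the others, was highest in replicate 2, at 56.2, 105 and 55.7 CPM, and NOC3 was the lowest of the group per kb and stood at 49.8, 36.5 and 24.0 CPM.

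Helicases and Brix-domain proteins of the 60S subunit also differed within their sets. Of the DEAD-box helicases, which remodel RNA with ATP, HAS1 (YMR290C) stood at 70.7, 68.0 and 92.0 CPM per kb, DRS1 at 67.1 ± 4.33, SPB4 at 52.3 ± 19.7 and DBP10 (YDL031W) at 26.0, 23.3 and 28.3. HAS1 and DBP10 did not overlap, and HAS1 exceeded DBP10 by 2.96-fold ± 0.266 (SD, n = 3). The GTPases NOG1 (YPL093W) and NOG2 (YNR053C), which act in turn on nuclear particles, stood at 99.0, 87.5 and 83.5 and at 98.7, 53.4 and 129 CPM per kb and could not be ordered. Of the Brix proteins, RPF1 (YHR088W) led at 125, 141 and 194 CPM per kb, with RPF2, which brings the 5S particle into the subunit, at 87.9 ± 33.8 (SD, n = 3). BRX1 stood at 49.4, 26.9 and 68.5 CPM per kb, lowest in replicate 2. NOP2 (YNL061W), a methyltransferase of the large subunit RNA, stood at 89.2, 107 and 121 CPM per kb, RLP7 at 59.3 ± 28.6 (SD, n = 3) and NOP4, the lowest of these 3, at 37.6, 41.7 and 61.7.

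SSF1 (YHR066W) was the lowest of the 60S factors, at 10.9, 10.6 and 14.1 CPM per kb, and RPF1 exceeded it by 12.8-fold ± 1.21 (SD, n = 3). It has a paralog, SSF2 (YDR312W), known to replace it, which stood at 29.9, 22.2 and 25.8 CPM against 14.8, 14.5 and 19.2 for SSF1. SSF2 was the higher of the pair in each library. SSF1 was the only factor with any 50-base stretch found elsewhere in R64, 4.04% of its stretches, so how reads of shared stretches were divided is uncertain. None of the 56 overlapped a neighbouring coding gene of R64. Whether reads from the opposite strand were counted is not given in the sources used here.

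The full order of the 56 should be read with its spread. Of the 55 neighbouring steps in the order by mean CPM per kb, 53 had libraries that overlapped. The other 2 were the step from NOP10 to GAR1 and the step from UTP9 to UTP18. Between libraries, Spearman's rho was taken over the CPM of the 56 genes without length. It was 0.91 for replicates 1 and 2, 0.88 for 1 and 3, and 0.86 for 2 and 3. For CPM per kb it was not computed. The CV over the 3 libraries had a median of 25.4% among the 55 factors with a mean of at least 10 CPM, where counting error alone gives 4.30%. Over all 5108 matched genes at that level the median CV was 22.6%. It was below 20% in 21 factors (38.2%, against 43.5% of all genes) and above 50% in 7 (12.7%, against 11.8%).

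Between libraries, the factors were most often lowest in replicate 2 and highest in replicate 3. Of the 55, 29 had their lowest CPM in replicate 2 and 35 their highest in replicate 3, or 52.7% and 63.6%, against 38.2% and 38.8% of the 5108 genes. The median difference in log2 CPM was -0.39 for replicate 2 minus replicate 3, where it was -0.05 over all genes. In this pair 41 of 55 factors were lower in replicate 2, against 2711 of the 5108 genes. Over 1.5-fold, 19 of 55 factors were lower in replicate 2 than in replicate 3 (34.5%, against 22.0% of all genes) and 5 were higher (9.09%, against 16.3%). Since 1 library stands on each side, these differences have no replicate check, and the 3 comparisons share libraries. Of the main groups, the median was -0.47 for the 40S factors, -0.38 for the 60S factors and -0.33 for the snoRNA particle cores with NSR1.

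By its median differences, replicate 1 lay between the other libraries. Gene by gene, replicate 1 was the highest for 14 of 55 factors (25.5%, against 25.7% of all genes). It was the lowest for 14 (25.5%, against 30.8%). Against replicate 2 its median difference was 0.18, with 10 of 55 factors over 1.5-fold higher (18.2%, against 16.9% of all genes) and 5 lower (9.09%, against 13.9%), shares near those of all genes. Against replicate 3 it was -0.25, with 6 higher (10.9%, against 12.1%) and 17 lower (30.9%, against 14.4%). Among the 40S factors 11 of 27 were lower than in replicate 3 by this measure, among the 60S factors 5 of 19, and among the snoRNA particle cores with NSR1 1 of 9.

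Other gene lists are given beside the factors for the same library pairs. For replicate 2 minus replicate 3 the median log2 difference was -0.50 among 69 other nucleolar assembly factors, -0.71 among 23 late and cytoplasmic factors, -0.49 and -0.58 among genes of RNA polymerases I and III, and -0.59 among 138 ribosomal protein genes. General stress genes had the opposite sign, at 0.39, with 23 of 24 higher in replicate 2. For replicate 1 minus replicate 3 the factors stood at -0.25 while the ribosomal protein genes stood at -0.01, the other nucleolar factors at -0.10 and the stress genes at 0.02. These lists were chosen with earlier results of these data known, and the difference between them was not tested. Replicates 2 and 3 are also the shallower libraries, and with every library thinned to the smallest the medians of the factors were -0.37 for replicate 2 minus 3 and -0.29 for replicate 1 minus 3.

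**Figure D4:**
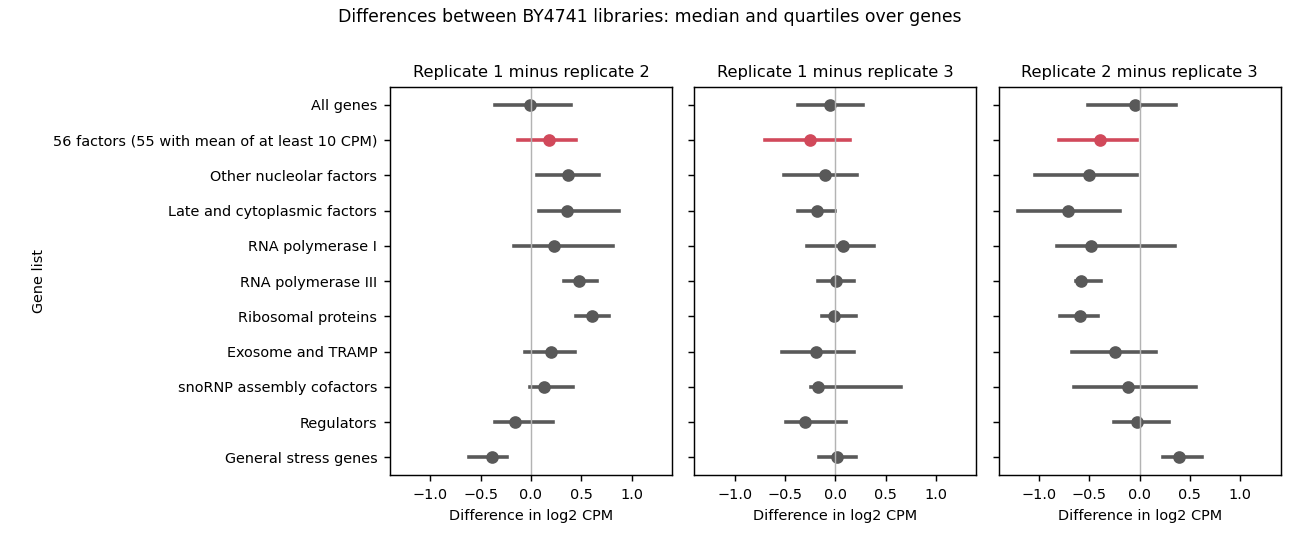
Difference in log2 CPM between each pair of BY4741 libraries (horizontal axis) for gene lists (vertical axis), over genes with a mean of at least 10 CPM. Points are medians over the genes of a list and lines run from the lower to the upper quartile. The 55 factors have medians of 0.18, -0.25 and -0.39 in the 3 panels.

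Some factors had 1 library apart from both others. Over 1.5-fold above both other libraries, replicate 3 held 11 of 55 factors, against 7.85% of all genes: UTP9, UTP10, PWP2, IMP4, UTP22, SOF1, KRR1, ENP1, SPB4, RPF2 and RLP7. Below both others it held UTP4, EMG1 and NOC3 (5.45%, against 7.42%). Replicate 2 held NHP2, UTP15, IMP4, UTP7, ENP1, BRX1 and NOG2 below both others (12.7%, against 11.7%) and UTP4, UTP8 and NOC2 above them (5.45%, against 7.03%). Replicate 1 held SNU13 and EMG1 above both others (3.64%, against 3.52%) and UTP20 and UTP21 below them (3.64%, against 4.60%). Other than the 11 of replicate 3, these shares lie near or below those of all genes. The factors highest in replicate 3 or lowest in replicate 2 go the way of the median by the way they were picked. They add no support to it. SOF1, a WD-repeat protein of the processome, is an example from replicate 3, with 24.7, 19.1 and 59.6 CPM. RPF2 stood at 72.4, 69.3 and 131 CPM, SPB4 at 71.7, 77.4 and 136 and RLP7 at 47.0, 36.5 and 88.8.

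The level of a factor and the cores in its promoter window were set side by side. The 38 factors with both cores had a median of 52.0 CPM per kb, from 10.7 (UTP9) to 408 (GAR1). The 15 with PAC alone had a median of 25.9, from 4.78 (UTP18) to 918 (NOP10). Both classes thus spanned high and low genes. For replicate 2 minus replicate 3 their median log2 differences were -0.37 and -0.43. The remaining 3 were UTP15 at 18.4, UTP22 at 12.6 and EMG1 at 39.2 CPM per kb, and they are too few to compare.

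The 19 regulators had a median of 82.4 CPM per kb, with 13 above the median of all genes and 2 in the lowest 25%. Their levels by library are given in CPM. DOT6 (YER088C), which encodes a repressor that binds PAC, stood at 659, 785 and 813 CPM, and its paralog TOD6 at 104, 116 and 86.0. DOT6 exceeded TOD6 in each library. STB3, which encodes the RRPE-binding protein, stood at 180, 255 and 213 CPM, lowest in replicate 1. SFP1, the activator that Tor signalling keeps in the nucleus, stood at 69.3, 138 and 108 CPM, with replicate 1 again the lowest. SCH9, the kinase through which Tor acts on these repressors, stood at 274 ± 37.4 CPM, and MRS6, which binds Sfp1, at 290 ± 29.1 (SD, n = 3 each). FHL1 and IFH1, activators of ribosomal protein genes, stood at 103, 67.7 and 51.7 and at 94.9, 68.5 and 54.8 CPM, which is 26.4 and 22.3 CPM per kb in the mean and below the median of all genes. CRF1, known as a corepressor, stood at 173 ± 33.1 CPM (SD, n = 3). Of the 19 regulators, 2 had a PAC core and 1 an RRPE core. Transcript levels of these proteins do not show their activity, which is known to be set by phosphorylation and localisation.

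The factors were spread over the genome, on 14 of 16 chromosomes, with 31 of 56 on the plus strand. RPF1 and GAR1 are next to each other and convergent, and no other pair of the 56 are neighbours among coding genes. A further 5 factors have another assembly factor as a neighbour: SSF1 is divergent from the helicase gene RRP3 across 297 bases, and UTP9, NOC3, UTP13 and NOG2 lie on the same strand as RIX1, CMS1, RSA3 and ESF2. The median coding length of the 56 was 1725 bases, against 1185 over all matched genes, from 177 in NOP10 to 7482 in UTP20. NOG2 alone has more than 1 coding part, where 274 of the 5898 matched genes do.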

How the data were processed

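The labels' protocols name an Ambion Ribopure-Yeast kit for the RNA and the Nugen Universal Plus system for the mRNA libraries. Raw counts are what the authors deposited, as a table for each library. FastQC, TopHat, HTSeq and DESeq2 are named in the submitters' processing notes. Tool versions, genome build and strandedness were not given in the sources used here. Of the 6572 BY4741 identifiers, 5898 matched coding genes of RefSeq R64, which gave symbols, coding lengths, gene order and promoter sequence, and 674 did not.

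Counts were divided by library totals (CPM) and by coding length (CPM per kb), with means and SDs over 3 libraries. Library differences used log2 of CPM plus 0.5 over genes with a mean of at least 10 CPM, and a difference over 1.5-fold was counted. Motifs were searched on both strands, overlapping matches included. Gene lists were matched by symbol or synonym. Protein composition was not analysed here. Members and lists were chosen with earlier results of these data known. Values by library are given for the highest and lowest gene of each complex, the 5 highest and 5 lowest genes, the snoRNA particle cores, members apart in 1 library and SSF2. Regulators are given as counts and a median, with a few named. A few further members were added after their values were seen. Shares carry 95% Wilson intervals, and limits on counts of 0 use 3 reads. Both cover counting error only. The count of genes past the fold and the PAC search were tested on simulated data, and the other steps were not. The simulated counts held counting error only. Alternatives covered edgeR TMM and DESeq2 size factors, filters, offset, fold, thinning, motif letters and leaving out single libraries. Scaling alternatives ran in R 4.3.3 with edgeR 4.0.16 and with DESeq2 1.42.0. Other steps used pandas 2.3.3 and numpy 2.4.6 in Python 3.11.15, intervals and correlations SciPy 1.17.1, and figures matplotlib 3.10.9.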

Additional observations from a re-analysis of the deposited data

How the results depend on the processing

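Of the recomputed values, 87 stayed within the spread or limit set for them and 19 moved. The median level of the factors over that of all genes was 1.04 per kb, 1.38 in CPM without length and 0.958 against genes of at least 1 CPM, and from 0.894 to 1.08 with a library left out, so whether the factors lie above or below the median of all genes depends on these choices, and the cause was not tested. Without a library, the median CPM per kb ranged from 26.6 to 31.3 for the 12 remaining small subunit factors and from 16.2 to 20.5 for UtpA. At 2-fold in place of 1.5-fold, replicate 1 had 2 factors higher and 0 lower than replicate 2 (7.13% and 4.21% of all genes), 3 higher and 4 lower than replicate 3 (5.15% and 5.21%), and replicate 2 had 2 higher and 9 lower than replicate 3 (7.32% and 10.3%). The median CV was 21.4% among the 39 factors of at least 50 CPM, against 18.2% over all genes at that level. Without replicate 1, 2 and 3 it was 25.1%, 21.5% and 17.7%, against 21.3%, 16.0% and 18.2% over all genes. The longer PAC letters GCGATGAG were found in 58.9% of the factors (against 236 of all 5897 promoters) and the RRPE letters TGAAAATTT in 39.3% (3.68% of all promoters). No paired analysis was possible because the Biocodex tables share 0 identifiers with those of BY4741, so the factors could not be matched there, and no test was made. Depth limits UTP18 and EMG1, with 18 and 44 reads in replicate 3, and UTP15, with 41 in replicate 2.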
